A study of Mus musculus with 18 samples.

Results

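The end of the erythroid course of murine erythroleukemia (MEL) cells was examined as day 6 of hexamethylene bisacetamide (HMBA) against days 4 and 5. MEL cells are an established mouse line of virus-transformed erythroid precursors, and HMBA is a polar compound that sets them on the path to hemoglobin-making cells. The comparison used 6 of the 18 two-colour arrays of the study. They were 1 array each for days 4, 5 and 6 in series A and in series B, the letters given in the titles. Channel 1 of each array held RNA of cells 4, 5 or 6 days after HMBA, and channel 2 held RNA of control cells without HMBA, so all 6 arrays share an uninduced control as reference. No dose of HMBA was given in the labels. Arrays titled SD and arrays of day 0 did not enter the comparison. The labels do not say whether arrays of a day were made from separate cultures. The p-values therefore describe array-to-array spread, part of which may be technical. As days 4 and 5 were taken as 1 reference, that spread also holds any change from day 4 to day 5. It likewise holds any difference between the series in the day 6 change.

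Erythroid precursors that differentiate leave the cell cycle, condense their chromatin, switch on globin and heme synthesis under regulators such as Gata1 and Klf1, and later shed organelles and much of their protein-making machinery. MEL cells are blocked before these steps and pass through part of them once an inducer is added. The last days of such a course are when hemoglobin accumulates and many cells have divided for the last time.

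The values were log2 ratios, taken as induced over control RNA, each array centred on its median, so a centred value of 0 is the level of the middle probe on that array. A probe is a spot on the array, and probes for near-identical genes may measure more than 1 transcript. A probe was kept when both day 6 arrays and at least 3 of the other 4 arrays held a value, which left 1428 of 6868 probes, 810 of them with a value on all 6 arrays. The number of probes with a value was 4187, 2804 and 4873 on days 4, 5 and 6 of series A, and 2180, 2453 and 2302 in series B. The arrays also differed in the spread of their values, with an SD across probes of 1.03 to 1.31 log2 in series A and 1.48 to 1.75 in series B. No source used here states the numerator, so the direction is likely rather than settled. It was taken because the labels name channel 1 as the induced one and globin probes were high. The lowest correlation between any 2 of the 13 arrays other than SD was -0.08. The signal behind each ratio was not used here, and the number of arrays limits the precision.

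Within each series, day 6 was more like day 4 than like day 5. The correlation across probes of day 6 with day 4 was 0.71 in series A and 0.61 in series B, and that of day 6 with day 5 was 0.46 and 0.38. Over the 810 probes with 6 values, the median absolute difference between days 6 and 4 was 0.60 log2 in series A and 0.95 in series B. Between days 6 and 5 it was 0.76 and 1.38, and between days 5 and 4 it was 0.88 and 1.09. The most frequent course was down to day 5 and up to day 6, which 163 probes (20.1 percent) took in both series. A further 115 (14.2 percent) went up to day 5 and down to day 6 in both. These correlations are across probes, which are not independent replicates.

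For each probe the day 6 value minus the mean of days 4 and 5 was taken within each series. Where 1 of these days held no value in a series, the other day alone was the reference. Both series were fitted together by limma with the series letter as a block. With 2 arrays of day 6 against 4 arrays of days 4 and 5, limma called 0 of 1428 probes (0 percent) at a Benjamini-Hochberg adjusted p under 0.05, and the smallest adjusted p was 0.741. The median standard error was 0.86 log2. At an unadjusted p under 0.05 there were 80 probes, 68 higher on day 6 (4.76 percent of those tested) and 12 lower (0.84 percent). The split of higher to lower was 62 to 24 without centring, 71 to 25 with the spread of the arrays made equal and 72 to 32 with quantile normalization. It rested on single arrays as well. Without the day 6 array of series B it was 5 to 3, without day 6 of series A 143 to 22, and without day 5 of series B 29 to 8. Without day 5 of series A it was 49 to 6, and without day 4 of series B 51 to 26. Because nothing passed the adjusted threshold, the differences below are measured values and not calls, and the genes the results turn on are given with their value on every array. With 1 day 6 array left out, the fitted difference of a probe equals the difference within the other series, so its sign turns wherever the series differ in sign. Where a pair of differences is given, series A comes first, and a value in brackets beside an SE is the fitted difference in log2. Among pairs given without their array values, 1 reference day was missing in series A for Ruvbl2, Eif6, Sh2d3c, Slc25a14, Ccnc, Atp5j2 and others. In series B it was missing for Jpt1, Lamp2, Ndufs4, Stat5b, Cct3, Ccng2, Timeless, Fkbp3, Sh3bp1, Rcan2 and others.

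The series shared only part of the day 6 difference. The differences of series A and of series B correlated across the 1428 probes with a Pearson r of 0.16 (Spearman 0.17), and 790 probes (55.3 percent) had the same sign in both, 386 higher and 404 lower. The SD of the differences was 0.86 log2 in series A and 1.58 in series B, and their medians were -0.13 and 0.21. A probe lay beyond days 4 and 5 when its day 6 value was above, or below, every measured value of days 4 and 5 in both series. This was so for 220 probes upward (15.4 percent), with a median difference of 0.81 log2 in series A and 1.79 in series B. It was so for 190 probes downward (13.3 percent), with medians of -0.86 and -1.10. Of these, 65 upward and 42 downward differed by at least 1 log2 in each series.

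**Figure D1:**
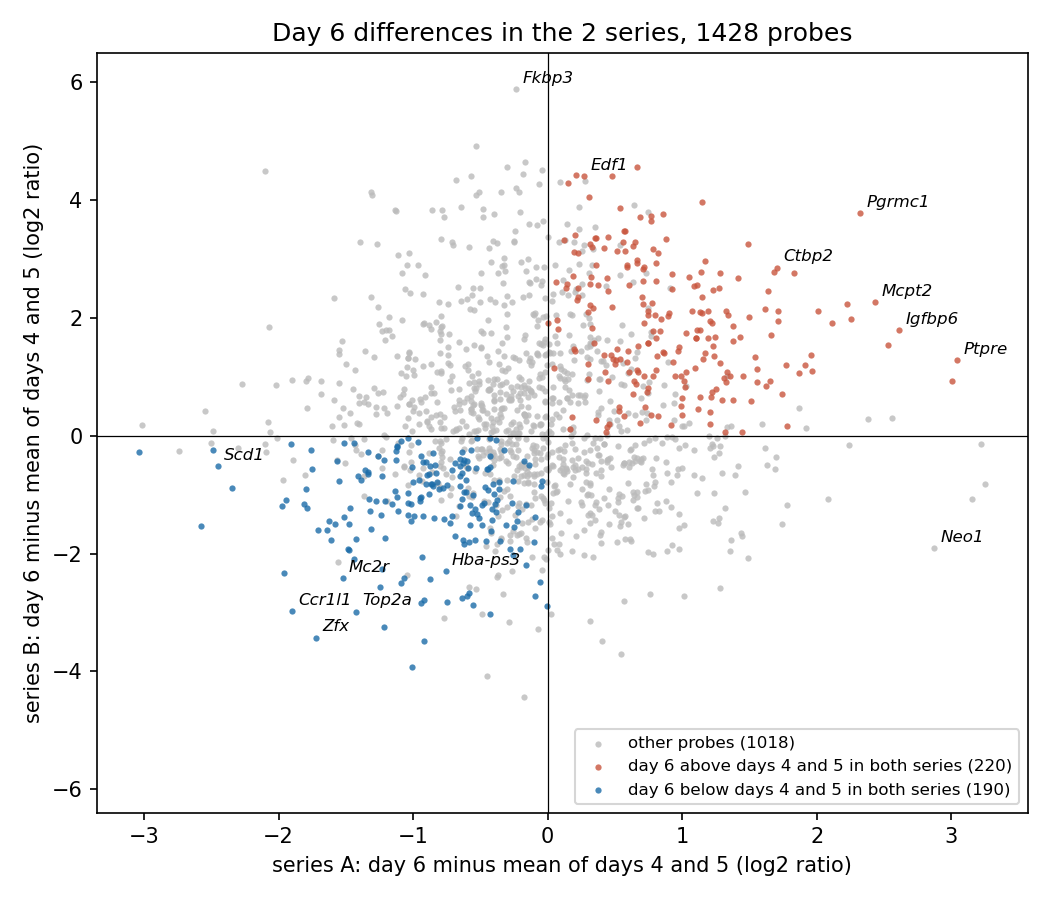
Each of the 1428 points is a probe, with its day 6 value minus the mean of days 4 and 5 in series A (horizontal, log2 ratio) against series B (vertical, log2 ratio). Red points lie above days 4 and 5 in both series (220) and blue points below (190), and the vertical spread (SD 1.58) is wider than the horizontal (SD 0.86).

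The globin probe that stood highest through the late course was lower on day 6 in both series. Hba-ps3, annotated as an alpha-globin pseudogene, stood at 4.96, 4.82 and 4.13 on days 4, 5 and 6 of series A and at 6.38, 5.97 and 3.87 in series B. Both day 6 values were the lowest of their series, each step went down, and yet day 6 was still far above the centre of its array. The fitted difference was -1.53 log2 (SE 0.80, limma adjusted p 0.741), and it was negative under all 19 alternatives run. As each step went down in both series, leaving out an array or a reference day could not turn this sign. No probe sequence was used here to tell it from the near-identical adult alpha-globin genes, so which of these transcripts it measured is uncertain. In RNA from a whole culture, fewer cells of a type and less RNA per cell cannot be told apart.

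Hbb-b2, an adult beta-globin gene with a near-identical neighbour, stood at 3.57, 3.51 and 1.86 on the 3 days of series A and at 2.65, 0.36 and 2.22 in series B. Its day 6 value was the lowest of series A but lay between days 4 and 5 in series B, and the fitted difference was -0.49 (SE 0.87, limma adjusted p 0.950). Hba-x, the embryonic zeta-type globin, read 0.43, 0.11 and -1.51 in series A and -0.87, 1.39 and 1.24 in series B. The series went opposite ways for it, -1.78 and 0.98. So 3 globin probes were tested, all 3 with a negative fitted difference and 1 below days 4 and 5 in both series. Over all 1428 probes 684 had a negative fitted difference and 13.3 percent lay below days 4 and 5 in both series.

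The enzymes of heme synthesis split by series. Alad, which makes porphobilinogen, read 0.28, 1.07 and 0.56 in series A and -2.88, -2.57 and -0.66 in series B, a fitted difference of 0.98 (SE 0.82). Cpox, the coproporphyrinogen oxidase, read 0.31, 0.37 and 0.04 in series A and -0.92, -1.0 and 1.11 in series B, a difference of 0.88 (SE 0.82). Fech, the ferrochelatase that puts iron into heme, read 0.34, 2.36 and 0.08 in series A and, on days 5 and 6 of series B, -1.76 and -1.03, a difference of -0.41 (SE 0.92). In all 3 the day 6 value of series A was below the mean of its days 4 and 5 and that of series B was above it. Alas2, the erythroid enzyme of the first step, was below the filter, with 2.55, 3.79 and 1.54 on days 4, 5 and 6 of series A and 3.25 on day 6 of series B, its only value there.

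Of 8 probes for iron handling, 6 were lower and 2 higher on day 6 in the fit, against 684 lower of 1428 over all probes. The list's median was -0.28 in the fit, 0.08 in series A and -0.58 in series B. Without the day 6 array of series B it was 0.08. Ncoa4, the receptor that carries ferritin to the lysosome, read 1.16, -0.04 and -0.04 in series A and 0.15, 0.97 and -2.16 in series B, with a difference of -1.66 (SE 0.83, limma adjusted p 0.741). Days 5 and 6 of series A were almost equal for it, and in series B day 6 was well below both other days. Nfs1, the cysteine desulfurase of iron-sulfur cluster assembly, read -1.30, -0.74 and -2.25 in series A and, on days 5 and 6 of series B, 0.65 and -1.61, also lowest on day 6 in both series (-1.67, SE 0.87). Tfr2, transferrin receptor 2, was higher by 1.17 (SE 0.86), at 1.32, -1.42 and 1.28 in series A, where day 6 lay just under day 4, and 0.39, 0.05 and 1.23 in series B. Tfrc, the main transferrin receptor, was below the filter with 1.50, 1.31 and 0.18 in series A and 2.36 on day 4 of series B.

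Among the probes lower on day 6 were genes of DNA handling and the cell cycle. Top2a, the topoisomerase of dividing cells, read -2.00, -0.74 and -2.79 in series A and -1.39 on day 4 and -4.38 on day 6 of series B. Day 6 was the lowest in both series, and the difference was -2.09 (SE 0.89, limma adjusted p 0.741). On day 0, with control RNA in both channels, this probe read -1.69 and -3.75. A ratio below the array centre was thus also read with no induced RNA on the array, and its part in the result was not tested. Cks1b, a small protein bound to Cdk complexes, read -1.75, -0.28 and -1.96 in series A and 0.18 and -2.67 on days 5 and 6 of series B (-1.76, SE 0.90). Cdkn2c, the Cdk inhibitor p18, read -0.96, -0.30 and -1.55 and, on days 5 and 6 of series B, 1.28 and -2.22 (-2.02, SE 0.90). All 3 stood higher on day 5 than on day 6 wherever both were measured.

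For histone H4, 2 probes annotated as H4c14 went the same way. Histone H4 genes are near-identical copies, so which of them these probes measured is uncertain. The first read -0.54, 2.71 and -1.50 in series A and -3.95, -1.67 and -4.35 in series B, and the second -0.99, 2.30 and -1.31 in series A and -2.28 and -4.61 on days 5 and 6 of series B. In each series day 5 stood above the other days, and day 6 was the lowest. The fitted differences were -2.06 (SE 0.93) and -2.12 (SE 0.97), both with a limma adjusted p of 0.741. The list of histones and chromatin proteins as a whole had 4 of 12 probes higher and 8 lower. The member with the smallest p upward was Hmgb3, a high mobility group protein rather than a histone. Terf2ip, a protein of the telomere complex, differed by -1.79 (SE 0.80) at 1 probe, with -0.20, 0.02 and -1.18 in series A and -0.45, 0.12 and -2.66 in series B. Its second probe differed by 0.38, so the probes disagree in sign.

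The probe with the smallest p among those lower was Ccr1l1, a chemokine receptor-like gene. It read 1.37, 2.07 and -0.18 in series A and 3.29, 1.05 and -0.80 in series B, a fitted difference of -2.44 (SE 0.85, limma adjusted p 0.741). It was above the array centre on days 4 and 5 of both series and below it on day 6. Mc2r, the receptor of adrenocorticotropic hormone, read 0.90, 1.06 and -0.54 in series A and -0.44, 1.20 and -2.03 in series B (-1.97, SE 0.82). Zfx, an X-linked zinc finger transcription factor, read -1.46, 0.14 and -2.38 in series A and 1.68 and -1.75 on days 5 and 6 of series B (-2.45, SE 0.90). Myo6, an unconventional myosin, read -0.69, 1.20 and -0.75 and, on days 5 and 6 of series B, 1.99 and -1.95, a difference of -2.26 (SE 0.94). Its day 4 and day 6 values in series A were nearly equal, and day 5 stood above both.

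Further probes among the lowest were Sh2d3c, Jpt1 and Dnajb1. Dnajb1, a co-chaperone of Hsp70, read 1.76, 1.69 and 0.66 in series A and 0.27, 2.78 and -0.88 in series B, with a difference of -1.74 (SE 0.86). Sh2d3c, a signalling adaptor, differed by -1.44 in series A and -2.09 in series B. Jpt1 differed by -1.25 and -2.57, the latter against day 5 alone. Slc25a14, a mitochondrial carrier, had almost the same difference in each series, -1.61 and -1.76, and so had Ccnc, the cyclin of the Mediator kinase module, with -1.63 and -1.44. Splicing factor Srsf2 differed by -1.12 and -1.27 at 1 probe, while its other probe differed by 0.27 in the fit.

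The fatty acid desaturases Scd1 and Scd2 were lower on day 6, and most clearly in series A. Scd1 read 3.43, 2.30 and 0.41 on days 4, 5 and 6 of series A, and 0.70 and 0.18 on days 5 and 6 of series B. Scd2 read 2.21, 2.42 and -0.18 and, on the same days of series B, 0.22 and -0.02. The differences within series A were -2.45 and -2.49, and within series B -0.52 and -0.24. Fitted, they were -1.62 (SE 0.89) and -1.53 (SE 0.89), with limma adjusted p-values of 0.741 for both. All 5 tested probes for lipid and sterol synthesis had a negative fitted difference, against 684 of 1428 over all probes. In series B, however, Fads2 and Sqle were higher, by 0.61 and 0.23. Only Scd1 and Scd2 of the 5 lay below days 4 and 5 in both series.

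Lysosomal genes went both ways. Gaa, the acid alpha-glucosidase that breaks down glycogen, read 0.42, 0.66 and -1.81 in series A and 0.38, 1.74 and 0.17 in series B (-1.62, SE 0.82), and Lamp2, a lysosomal membrane protein, differed by -1.48 and -1.95. Npc2, which hands on cholesterol in the lysosome, went the other way, at 0.95, 0.47 and 1.81 in series A and -1.37, -0.51 and 0.72 in series B (1.38, SE 0.80). Of 13 lysosome and autophagy probes, 9 were lower and 4 higher, 3 and 2 of them beyond days 4 and 5 in both series. Over all 1428 probes 684 were lower, and 13.3 percent lay beyond downward and 15.4 percent upward.

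Upward, the probe with the smallest p of all was Pgrmc1, a membrane protein that binds heme and progesterone-type ligands. It stood at -0.63, -0.43 and 1.80 on days 4, 5 and 6 of series A and at -2.88, -1.69 and 1.50 in series B, so that both day 6 values were above 0 and all 4 others below it. The fitted difference was 3.05 log2 (SE 0.81), an 8.31-fold higher ratio, with an unadjusted limma p of 0.000932 and an adjusted p of 0.741. Each step of its course went up in both series. Under the 19 alternatives its difference stayed between 2.32 and 3.78, and with the day 0 profile of series A taken out of every array it was 3.23.

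A few further probes had large upward differences in both series. Ctbp2, a transcriptional corepressor, read -0.72, -0.95 and 0.87 in series A and -2.35, -2.12 and 0.62 in series B (2.28, SE 0.80). Igfbp6, a secreted binding protein of insulin-like growth factors, read 0.31, -1.45 and 2.05 in series A and -0.29, -0.73 and 1.28 in series B (2.20, SE 0.82). Clcn3, a chloride-proton exchanger of endosomes, read 0.37, 0.23 and 1.47 in series A and -2.03, -1.35 and 1.28 in series B (2.07, SE 0.81). In these 3 both day 6 values lay above the array centre and above all days 4 and 5 of their series. Ptpre, a tyrosine phosphatase, read -1.23, -2.12 and 1.36 in series A and 0.21, -0.76 and 1.00 in series B (2.16, SE 0.82). Hmgb3 read 0.25, -1.13 and 1.19 in series A and -0.58, -3.17 and 0.57 in series B (2.04, SE 0.87), and its lowest values in both series were those of day 5. All of these had a limma adjusted p of 0.741.

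Mcpt2, a mast cell protease, was below the array centre on all 6 arrays, and least so on day 6. It read -3.26, -5.93 and -2.16 in series A and -5.95, -4.72 and -3.07 in series B, a fitted difference of 2.35 (SE 0.87, limma adjusted p 0.741). Hspa9, the Hsp70 of mitochondria, likewise read -2.67 on day 4 and -0.56 on day 6 of series A and -4.82, -4.11 and -2.55 in series B (2.00, SE 0.86). The differences of the series were close for both, 2.43 and 2.27 for Mcpt2 and 2.11 and 1.91 for Hspa9. Stat5b, which carries the erythropoietin signal, differed by 1.71 and 1.95, Slc3a2, the heavy chain of amino acid transporters, by 1.54 and 1.33, and Eif6, a ribosome assembly factor, by 1.43 and 1.68. Tubb5, a beta-tubulin, differed by 1.96 and 1.37, but its day 6 values of 0.97 and 1.34 were nearer to those of day 4, 0.27 and 1.33, than to those of day 5, -2.26 and -1.40.

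**Figure D2:**
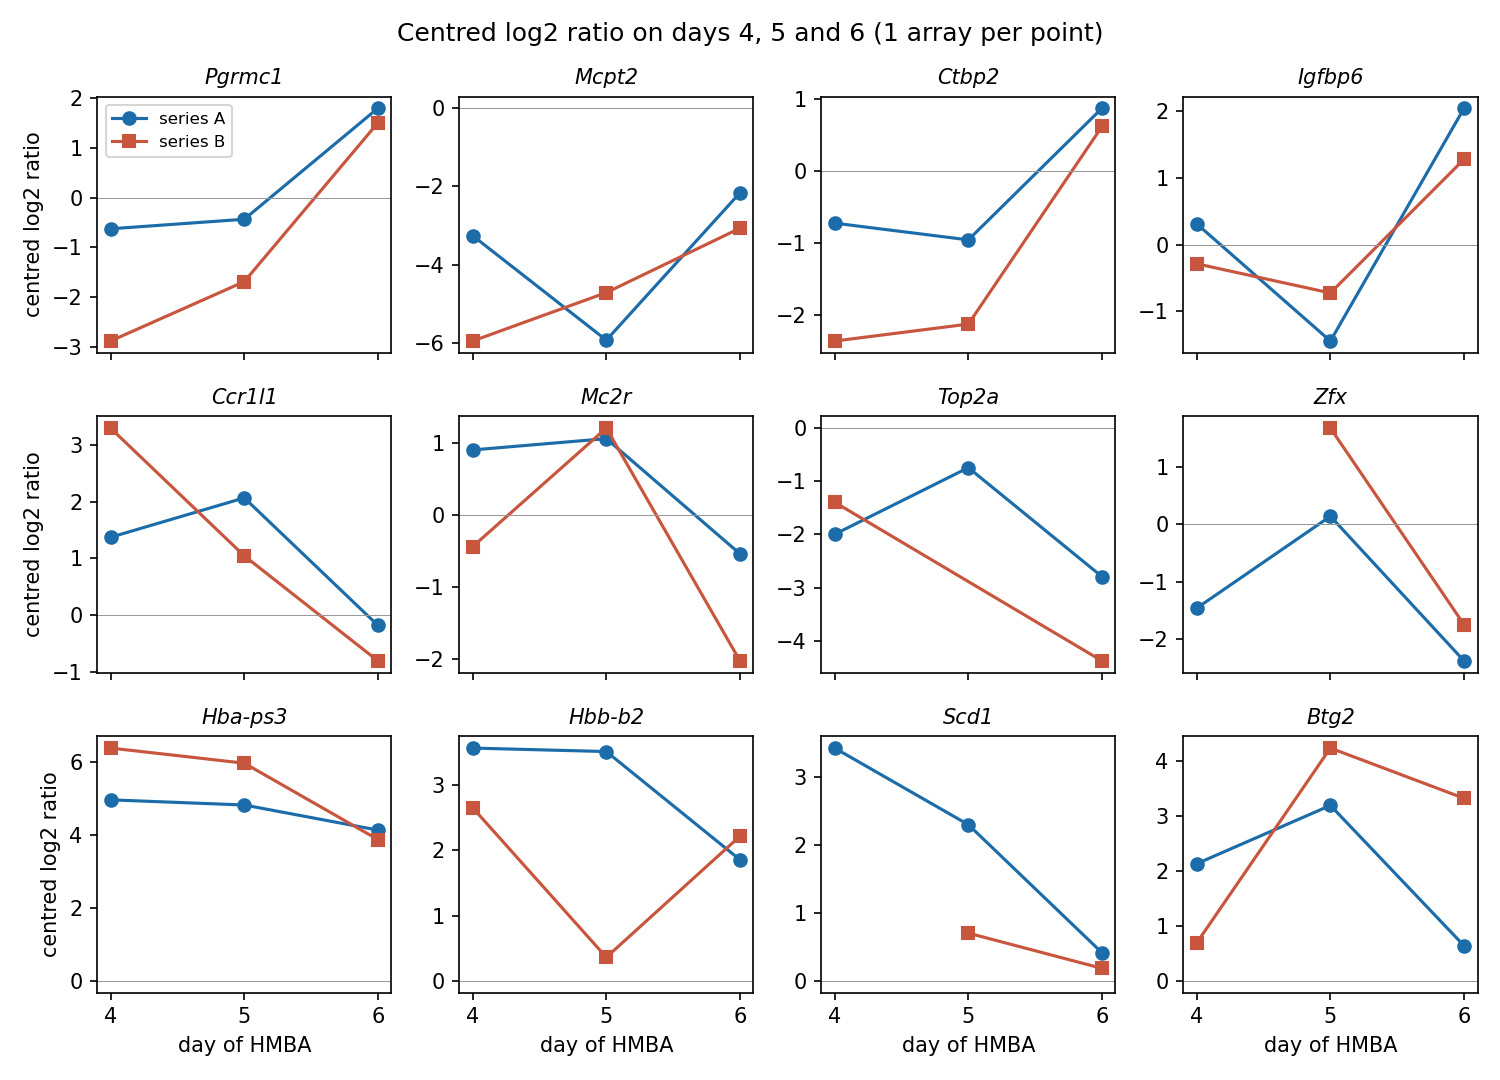
Centred log2 ratio (vertical) of 12 genes on days 4, 5 and 6 of HMBA (horizontal), with 1 array per point, series A as circles and series B as squares, and a gap in the points where an array held no value. Pgrmc1, Ctbp2, Igfbp6 and Mcpt2 end at their highest value in both series, Ccr1l1, Mc2r, Top2a, Zfx, Hba-ps3 and Scd1 at their lowest, and Hbb-b2 and Btg2 differ between the series.

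For another set of probes the upward difference came mostly from series B. Edf1, a small coactivator and ribosome-associated factor, read -0.75, -0.88 and -0.54 in series A and -3.22, -3.37 and 1.12 in series B, so its differences were 0.27 and 4.41. Cox7a2l, which helps respiratory complexes join, read -1.81, -2.03 and -1.06 in series A and -4.11, -3.76 and -0.17 in series B (2.31, SE 0.84). Rbmxl1, an RNA-binding protein, read -0.61, -1.55 and -0.60 in series A and -4.04, -4.65 and 0.07 in series B (2.45, SE 0.89). In these 3, days 4 and 5 of series B were 3 to 5 log2 below the array centre, day 6 of series B was near it or above, and series A moved by less than 1 log2. Vps72, a chromatin remodelling subunit, had differences of 0.77 and 3.65, Ruvbl2, an ATPase of the same machinery, 0.15 and 4.29, and Ndufs4, a subunit of respiratory complex I, 1.15 and 3.97. Smc1a, a cohesin subunit, had 0.58 and 3.47, and Sod2, the mitochondrial superoxide dismutase, 0.28 and 4.33.

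Several proteasome subunits had that course, and others did not. Psmd4, a ubiquitin receptor of the regulatory particle, read -1.41, -1.23 and -0.78 in series A and -3.02, -4.43 and 0.14 in series B (2.20, SE 0.87). Psmb5, a catalytic subunit, read -0.81, -0.65 and 0.15 in series A and -1.59, -3.01 and 1.04 in series B (2.11, SE 0.84). Psmb4, another beta subunit, read -0.16, -0.70 and -0.12 in series A and -1.90, -4.38 and 0.91 in series B (2.18, SE 0.93). Each had its day 6 values above all of its days 4 and 5, with a difference of under 1 log2 in series A and of more than 3 log2 in series B. Of 20 proteasome probes, 15 were higher and 5 lower, against 744 higher of 1428 (52.1 percent) over all probes. Below days 4 and 5 in both series were Psmd13, a subunit of the regulatory particle, at -0.43 and -3.03, and Psmg1, a factor of proteasome assembly, at -0.85 and -0.85, named here after their values were seen. The list's median difference was 0.76 in the fit, but -0.18 in series A and 1.89 in series B, and without the day 6 array of series B the list's median was -0.18.

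Ribosomal proteins and folding factors had the same lean to series B. Rpl19, Rpl28 and Rpl12, proteins of the large ribosomal subunit, differed by 0.23, 0.71 and 0.66 in series A and by 3.50, 2.84 and 2.99 in series B. Rpl12, for example, read -1.81, -2.08 and -1.28 in series A and -1.48, -3.80 and 0.35 in series B. Cct3, a subunit of the cytosolic chaperonin, differed by 0.75 and 3.79 and Pdia3, a disulfide isomerase of the endoplasmic reticulum, by 0.36 and 3.36. Eif4ebp1, a repressor of cap-dependent translation, differed by 0.37 and 2.55, but its list of translation factors had 9 of 17 probes higher and medians of 0.13 in series A and 0.08 in series B. Over the 18 ribosomal protein probes 12 were higher, with medians of -0.02 in series A and 1.18 in series B. The median of this list was negative with quantile normalization, with the day 0 profile removed, and without day 4 or day 6 of series B.

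Many of these probes were also low on the day 0 arrays, where both channels held control RNA. There Edf1 read -1.85 and -3.35 in series A and B, Psmd4 -1.11 and -1.79, and Rpl19 -1.59 and -3.89. The ribosomal list had day 0 medians of -1.62 and -3.49, and the proteasome list -0.92 and -1.74. Across the tested probes the day 0 array of series A correlated with days 4, 5 and 6 of series B at 0.71, 0.64 and 0.53. With those days of series A it correlated at 0.53, 0.42 and 0.61. The slopes, over all probes with both values, were 1.39, 1.20 and 0.85 in series B and 0.83, 0.60 and 0.66 in series A. It correlated with the series B difference at -0.26 and with the series A difference at 0.08. For the day 0 array of series B these were -0.15 and 0.09. How far this shared profile enters the series B difference was not tested beyond its removal. With the day 0 profile removed, the fitted difference was 1.79 for Edf1, 1.84 for Psmd4, 1.38 for Rpl19 and 1.93 for Cox7a2l, and 0 probes were called by limma.

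**Figure D3:**
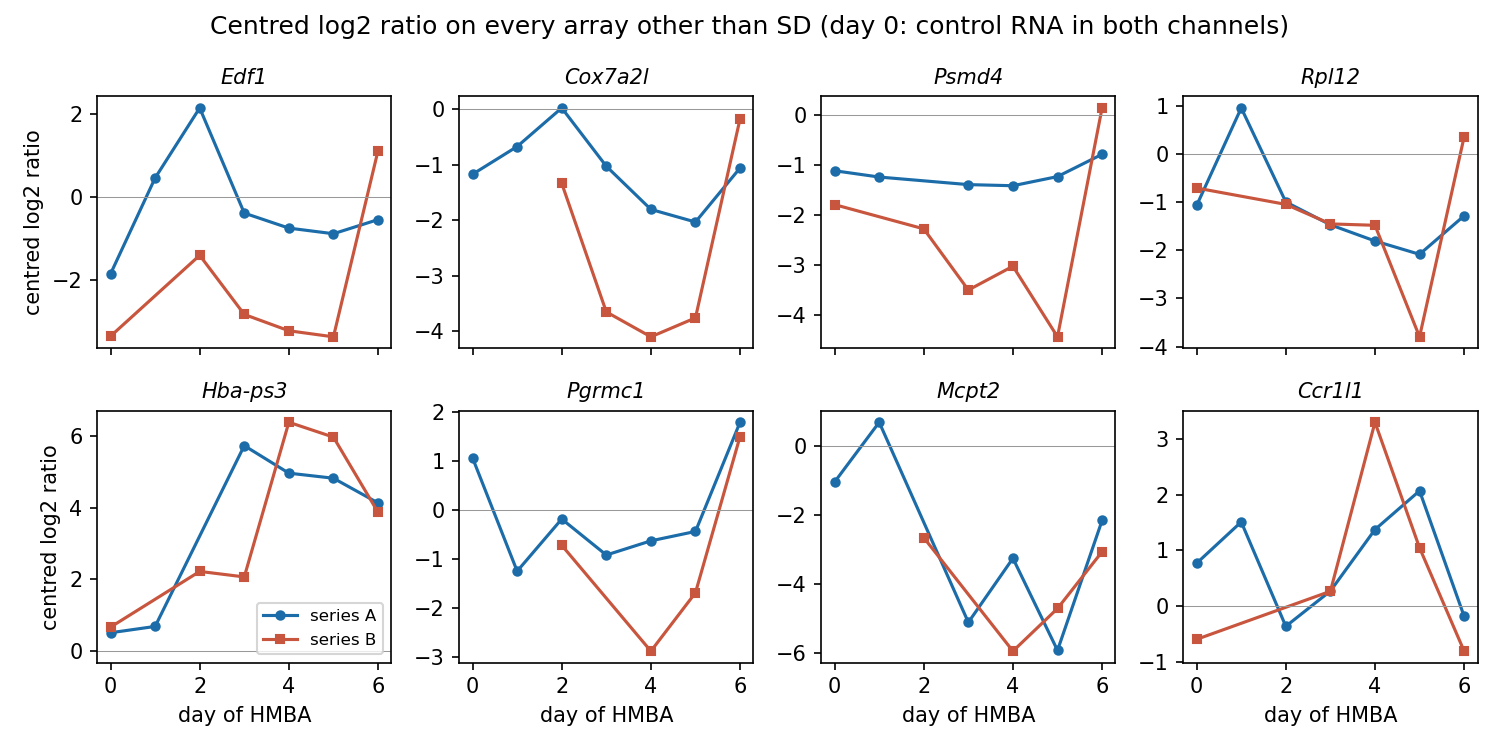
Centred log2 ratio (vertical) of 8 genes against day of HMBA (horizontal) on the arrays of series A (circles) and series B (squares) other than SD, with lines joining measured days and day 0 holding control RNA in both channels. Edf1, Cox7a2l, Psmd4 and Rpl12 stay below 0 in series B up to day 5 and reach -0.17 to 1.12 on day 6, while Hba-ps3 is at 0.51 and 0.67 on day 0 and at 3.87 or more on days 4, 5 and 6.

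Few probes kept going one way through both late steps. Of the 810 probes with 6 values, 21 went up from day 4 to 5 and from day 5 to 6 in both series (2.59 percent), and 8 went down at both steps (0.988 percent). In series A alone the shares were 10.5 and 14.8 percent, and in series B 17.5 and 6.17 percent. Besides Pgrmc1, the upward ones included Ldb1, the cofactor that joins Gata1 complexes, at -2.19, -2.03 and -1.60 in series A and -3.94, -3.76 and -0.72 in series B. Psma1, an alpha subunit of the proteasome, read -2.10, -1.76 and -0.84 in series A and -4.69, -4.31 and -1.95 in series B, and Vamp5, a vesicle membrane protein, -1.97, -1.16 and -0.43 in series A and -3.60, -3.48 and -1.45 in series B. In these 3 every value was below 0 and day 6 was the nearest to it. Rpl10 took the same course with differences of 0.22 and 3.10. Ubtf, the factor that opens ribosomal DNA for transcription, read -1.07, -0.58 and 0.33 in series A and 0.43, 1.17 and 2.11 in series B, with almost equal differences of 1.15 and 1.31.

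Besides Hba-ps3, the probes that went down at both steps included Tas2r108, a bitter taste receptor gene, at 1.97, 1.65 and 0.80 in series A and 2.67, 1.98 and 1.17 in series B (-1.09, SE 0.79). Rnf11, a RING finger protein of ubiquitin ligase complexes, read 2.13, 1.98 and 1.52 in series A and 2.53, 1.93 and 0.98 in series B (-0.90, SE 0.79). Nipa2, a magnesium transporter, read 2.21, 1.85 and 1.56 in series A and 2.24, 0.87 and 0.41 in series B (-0.80, SE 0.81). Nckap1, a subunit of the WAVE complex of actin assembly, read 1.32, 0.63 and 0.42 in series A and 2.06, 1.86 and 0.95 in series B. These 4 were above the array centre on all 6 arrays and lowest on day 6 in both series.

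The regulators of the lineage read out here had the same sign in both series. Zfpm1, Gfi1b, Mafk, Epor, Cbfa2t3, Stat5a and Mnt, also tested, had opposite signs in the series. Klf1, Gata2 and Max were read out for their small p, which favours series of the same sign. For Gata1, Klf1 and Myb day 6 was not beyond days 4 and 5 in both series. Gata1, the master regulator of red cell genes, was the 1 read out here that was lower. It read -1.02, 1.15 and -0.30 in series A and 0.37 and -1.99 on days 5 and 6 of series B, a difference of -1.22 (SE 0.93, limma adjusted p 0.842). Its day 6 value in series A lay between those of days 4 and 5. Klf1, the activator of adult beta-globin, read -0.17, -0.63 and -0.26 in series A and -3.27 and 0.32 on days 5 and 6 of series B (1.62, SE 0.93). Myb, which holds progenitors in the cell cycle, was below the array centre on every array, at -3.13, -3.81 and -3.09 in series A and -3.21, -0.97 and -1.13 in series B, and differed by 0.67 (SE 0.84). Gata2, a factor of earlier progenitors, read -0.47 and -0.15 on days 4 and 6 of series A and -2.16, -2.43 and -0.07 in series B (1.40, SE 0.88). Max, the partner of Myc, read -0.07, 0.51 and 1.02 in series A and 0.00, -1.29 and 1.40 in series B (1.43, SE 0.82). Gata2 and Max lay above days 4 and 5 in both series, and Myb did not. Myc was below the filter, with -1.56, -2.61 and -0.36 on days 4, 5 and 6 of series A and -3.54 on day 5 of series B.

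Btg2, an antiproliferative gene, had no common direction. It read 2.13, 3.19 and 0.64 in series A and 0.69, 4.23 and 3.32 in series B, so day 6 was the lowest value of series A and between the other days in series B, and the fitted difference was -0.58 (SE 0.95, limma adjusted p 0.950). Ccng2, a cyclin of non-dividing cells, was higher in both series, 0.93 and 2.75. Mcm7, a subunit of the replicative helicase, and Timeless, a replication fork protein, were also higher, by 0.84 and 1.97 and by 0.67 and 1.12, though every value of both stayed below 0. In series A their day 6 values, -0.76 and -1.13, were almost those of day 4, -0.82 and -1.14, and day 5 was lower, at -2.39 and -2.46. Of the 14 replication probes, 7 were higher and 7 lower.

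A test of the difference between the series, the interaction of day 6 with the letter, called 0 of 1428 probes (0 percent) by limma, with a smallest adjusted p of 0.999 and 60 probes at an unadjusted p under 0.05. Among probes with 1 gene symbol, those with the smallest p of this test were Fkbp3, an immunophilin, with differences of -0.23 in series A and 5.88 in series B, Creg1, a secreted glycoprotein, with -1.14 and 3.83, and Atp5j2, a subunit of ATP synthase, with -0.53 and 4.92. The series B difference of Fkbp3 rests on day 4 alone, which read -5.28. In the other direction stood Neo1, the receptor neogenin, with 2.87 and -1.91, Sh3bp1 with 0.55 and -3.71, and Rcan2, an inhibitor of calcineurin, with -0.18 and -4.44. Neo1 read -2.55, -0.79 and 1.20 in series A and -0.49, -0.94 and -2.62 in series B, so the courses crossed. Pkm, the pyruvate kinase of glycolysis, read 1.57, 2.84 and -0.34 in series A and -2.61, -2.60 and -2.18 in series B, lowest on day 6 in series A and highest on day 6 in series B. Ldha, lactate dehydrogenase, differed by -1.03 and -1.15. Its day 6 value in series B, -1.52, was almost that of day 5, -1.51. Red cell membrane genes leaned to series B (list medians -0.08 and 1.59), with Aqp1, a water channel, at 0.11 and 2.65 and Cd47, a self-recognition marker, at 0.23 and 2.35.

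By gene list, no list had a called probe. Apart from the proteasome, lists with most probes higher included chaperones and stress (16 of 20, median 0.73, with 0.04 in series A and 1.51 in series B), mitochondrial respiration and ATP synthase (12 of 17, 1.07, with 0.01 and 1.89) and nucleolus and ribosome assembly (5 of 6, 0.59, with 0.93 and 0.27). Of 26 probes for progenitor transcription factors 5 were tested. All 5 were higher in the fit, with a median of 0.69, 0.80 in series A and 0.96 in series B. Only Max and Gata2 of them lay above days 4 and 5 in both series, and Mnt, with a fitted difference of 0.13, was lower in series B (-0.63). In the nucleolar list Rrs1, a ribosome assembly factor, differed by 2.56 and 0.30 and Ncl, nucleolin, by 1.22 and 0.74. Among lists with 5 or more tested probes, the lowest medians were those of lipid and sterol synthesis (-0.65, with -1.59 and -0.24), histones and chromatin compaction (-0.56, with -0.70 and -0.49), lysosome and autophagy (-0.44, with -0.57 and -0.26) and mitosis (4 of 11 higher, -0.43, with -0.15 and -0.80). The median over all 1428 probes was 0.05, with -0.13 in series A and 0.21 in series B. Over the 19 alternatives the medians of the chaperone, respiration, nucleolar, progenitor factor, lipid, histone and mitosis lists kept their sign. That of the lysosome list was above 0 against day 4 alone and without day 5 of series B. Ube2a, a ubiquitin-conjugating enzyme, and Selenow, a selenoprotein, from the ubiquitin and redox lists, had upward differences in both series, 1.15 and 2.36 and 0.90 and 2.08.

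**Figure D4:**
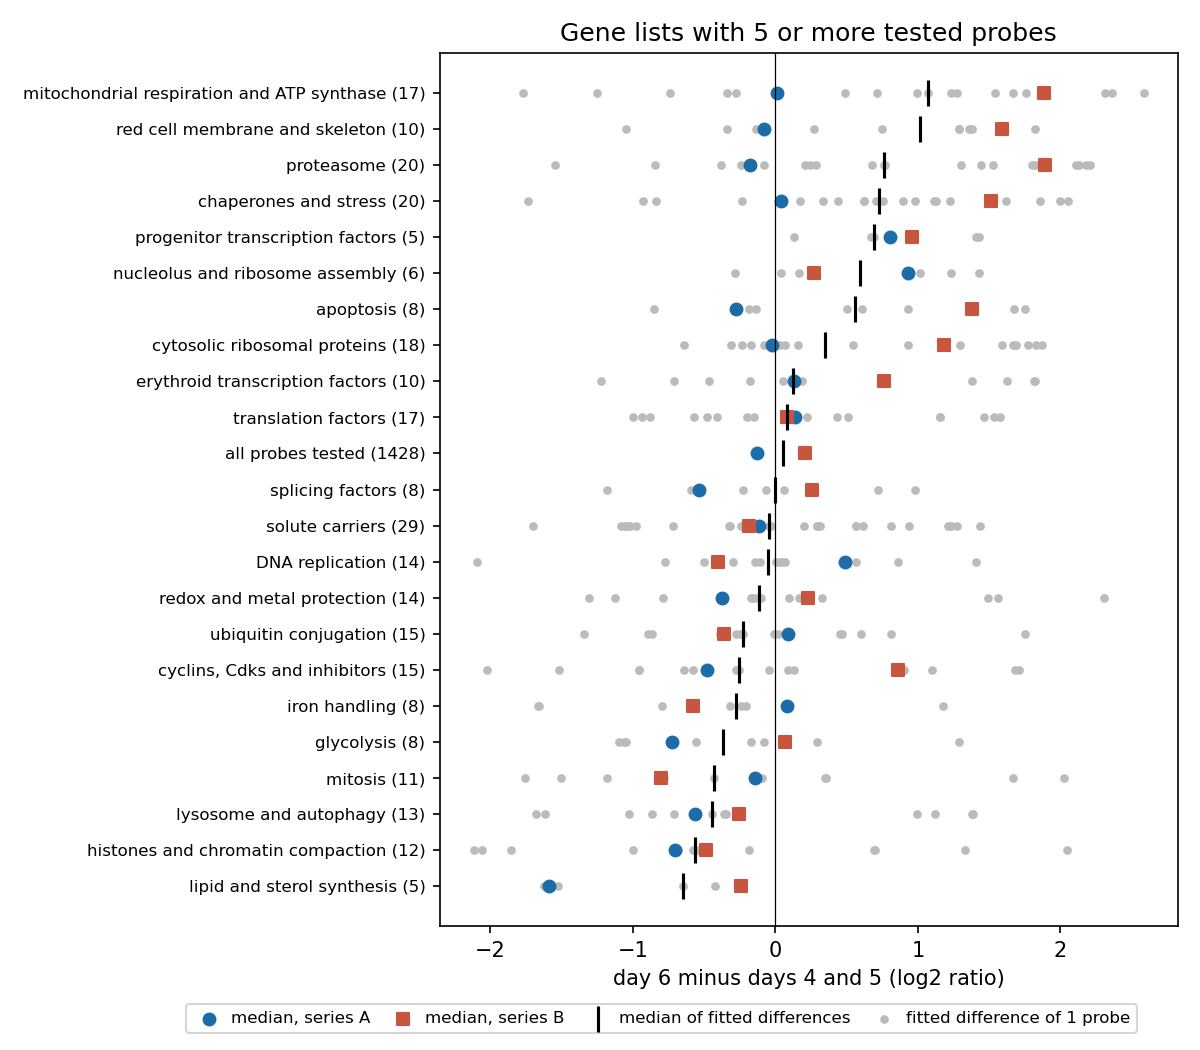
Day 6 minus days 4 and 5 (horizontal, log2 ratio) for each gene list with 5 or more tested probes, their number in brackets, with grey points for the fitted difference of each probe, black bars for their median, and circles and squares for the medians of series A and series B. Lipid, histone, lysosome and mitosis lists lie left of 0 in both series, and respiration and proteasome lists lie far right of 0 in series B (1.89 each) but not in series A (0.01 and -0.18).

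Markers of other cells were sparse on these arrays. Of 9 erythroid markers on the array 5 were tested (Hba-ps3, Hbb-b2, Gata1, Klf1 and Epor), 2 higher and 3 lower on day 6. Mcpt2 was the 1 tested of 8 mast cell markers on the array, and the 1 tested megakaryocyte marker was Itga2b, an integrin chain, at 3.33, 2.72 and 1.24 in series A and 2.06, 2.63 and 2.81 in series B. Of the 8 defining myeloid and 6 defining lymphoid markers on the array, 0 passed the filter. The wider lists held 22 myeloid probes, 4 of them tested, and 21 lymphoid probes, 2 of them tested. All 6 tested had a negative fitted difference, from -0.995 to -0.02, against 684 lower of 1428 over all probes. For all of them but Ngp the series went opposite ways, for example 0.52 and -1.80 for Cebpb and -1.22 and 0.47 for Cd22. The 1 below days 4 and 5 in both series was Ngp, a neutrophil granule protein, at -1.41 and -0.68, against 13.3 percent of all probes. The part of these cell types in the results was not tested. Repeat probes limit the reading as well, because of 10 genes with 2 tested probes, 5 had both fitted differences of the same sign.

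Set in the whole course, the leading genes had different histories. Hba-ps3 read 0.51 and 0.67 on day 0 of series A and B, 5.73 on day 3 of series A, and 2.22 and 2.07 on days 2 and 3 of series B, so in both series its highest value came before day 6. Mcpt2 was at 0.69 on day 1 and -5.12 on day 3 of series A and at -2.66 on day 2 of series B. Its day 6 values lay above all measured values of days 3, 4 and 5. Pgrmc1 read 1.07 on day 0 and -1.24, -0.18 and -0.91 on days 1, 2 and 3 of series A, so its day 6 value there was the highest of the course. Ccr1l1 read 0.27 and 0.27 on day 3, and its day 6 values were thus below those of days 3, 4 and 5 in both series. On day 2 of series A it read -0.36, lower than the -0.18 of day 6. Scd1 stood at 2.97 on day 3 of series A, and Scd2 at 2.92 on the same array, before the values of days 4 and 5 given above. Ptpre, in contrast, read -0.61, -1.32 and -1.03 on days 1, 2 and 3 of series A, with day 6 as the 1 value after day 0 above the array centre. In series B it was already above the centre on days 2, 3 and 4, at 0.30, 0.11 and 0.21.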

How the data were processed

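Two-colour arrays measured RNA of MEL cells on days 4, 5 and 6 of HMBA against RNA of uninduced cells, per the labels. The authors deposited a table of log2 ratios, a scale recognised because the 300 lowest values of each array turned into ratios with 3 decimals (tolerance 0.01). Dyes, scanner, background correction and normalization are not given in the sources used here, so the numerator and any earlier centring are unknown. Induced over control was taken as the likely direction, and with the opposite numerator every sign would turn. The deposited medians were 0.26, 0.29 and 0.55 on days 4, 5 and 6 of series A and 0.63, 0.27 and -0.0022 in series B. These medians were subtracted.

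GEO's platform annotation gave 1 gene symbol for 6108 probes, several for 41 and none for 719, and named the probes here. Of the named ones 6062 matched RefSeq through Entrez identifiers. Of the 1428 probes tested, 1263 had 1 symbol, for 1253 genes. Differences were fitted with limma 3.58.1 in R 4.3.3 (lmFit and eBayes), with the series letter as a block and days 4 and 5 as 1 reference (prior degrees of freedom 22.0, prior SD 0.97 log2), and adjusted by Benjamini-Hochberg over all 1428 probes. The block follows the design, as the differences are taken within each letter. The steps were tested on simulated data.

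The comparison, its genes and the gene lists were chosen with earlier results of these data known. The text names probes with 1 symbol by rule. These are, at most, 12 higher and 12 lower probes beyond days 4 and 5 in both series by p, the 3 members of each list with the smallest p, up to 5 stepwise upward and 5 stepwise downward probes, up to 3 each way by the test between the series, and the globins, Alas2, Tfrc, Gata1, Myb, Myc and Btg2. This gave 112 probes, of which 93 are described. Alternatives covered centring, scaling, the block, the reference day, the arrays, the filter, weights and each array left out. Removal of the day 0 profile, and the counts beyond day 4 or day 5 alone, were added after the data were seen.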

Additional observations from a re-analysis of the deposited data

How the results depend on the processing

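Under every alternative run, limma called 0 probes for day 6 against days 4 and 5. The split at an unadjusted p under 0.05, 68 higher and 12 lower, was 48 and 10 with no replicate block (the letter left out of the fit). With 1 array left out in turn, between 5 and 143 probes were higher and between 3 and 26 lower. The lower count was also 24 without centring, 25 with equal spread, 32 with quantile normalization, 44 against day 5 alone and 7 against day 4 alone. It was 6 of the 810 probes with values on all 6 arrays, and 27 of 1365 with the day 0 profile removed. Probes beyond day 5 alone, a looser rule that asks nothing of day 4, were 347 up and 301 down of 1120. Probes down at both steps were 4 with equal spread and 4 with the day 0 profile removed. The looser rule and the different numbers of probes enter into these moves, and their cause was not tested further. Of the 93 probes described, 77 kept their sign under every alternative and 16 did not. Many were picked because day 6 lay beyond days 4 and 5 in both series. For those, leaving out an array or a reference day could not turn the sign. Against day 4 alone the sign turned for Rcan2 (0.496), Klf1 (-0.0887), Sh3bp1 (0.192), Gata1 (0.718), Btg2 (0.568) and Hba-x (0.0865), and against day 5 alone for Fkbp3 (-0.232) and Hbb-b2 (0.0993). When 1 array was left out, the difference ranged from -0.53 to 4.92 for Atp5j2, -0.23 to 5.88 for Fkbp3, -1.14 to 3.83 for Creg1, -3.71 to 0.55 for Sh3bp1, -0.11 to 2.07 for Alad and -0.30 to 2.07 for Cpox, all turned without day 6 of series B. It ranged from -2.54 to 0.42 for Pkm, -1.79 to 0.46 for Itga2b, -2.02 to 0.86 for Btg2, -1.69 to 0.71 for Hbb-b2, -1.91 to 2.87 for Neo1, -1.78 to 0.98 for Hba-x and -1.26 to 0.73 for Fech, all turned without day 6 of series A. Neo1 also turned without day 4 and Fech without day 5 of series A, and Fkbp3 without day 4 and Sh3bp1 without day 5 of series B. The lowest limma adjusted p of any of the 93 in any alternative was 0.311. No intensity was used, so signal over background could not be judged.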

Other observations

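Day 5 stood apart from days 4 and 6 in both series for some probes, which were picked after their values were seen and carry no test. Neurog1, a neural transcription factor gene, read -0.01, 2.37 and -0.01 on days 4, 5 and 6 of series A and 0.06, 2.45 and 0.15 in series B. Xcr1, a chemokine receptor gene, read 0.69, 2.73 and 0.83 and, in series B, 0.03, 2.73 and 1.09. Car2, carbonic anhydrase 2 of red cells, read -2.19, -0.62 and -2.65 in series A and -3.49, -1.13 and -3.66 in series B. Ahcy, which breaks down S-adenosylhomocysteine, went the other way, with -0.16, -2.05 and 0.06 in series A and 0.48, -1.94 and 0.67 in series B. Tomm40, the import pore of mitochondria, read 0.54, -1.03 and 0.79 in series A and 1.82, -1.39 and 1.06 in series B. In each of these 5 genes day 5 was the highest or the lowest of the 3 days in both series.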
